A study of Homo sapiens with 6 samples.

Results

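Heat shock chaperones of the cytosol and the mitochondria are described here in human liver cancer cells that received the kinase inhibitor sorafenib. They are 37 genes listed by name and family with no cut on their values, although earlier results of these data were known when the list was made: 6 of the HSP70 and HSP110 families, 4 of the HSP40 family, 10 for HSP90 and its co-chaperones, 3 in the group of small heat shock proteins and their partner BAG3, 4 mitochondrial chaperones, 7 subunits of the CCT ring, the collagen chaperone SERPINH1, and the heat shock factors HSF1 and HSF2. Of the 37, 35 had a probe named after them on the beadchip, which names 20046 genes in all, and these 35 genes had 51 probes. AHSA1, an activator of the HSP90 ATPase, and HSF2 had no named probe. The HSF1 probe was detected on 0 of 6 arrays, and lay below the filter level in all 6 columns of the value table. HSF1, the main activator of heat shock genes, could therefore not be followed here. A probe below detection does not show that its gene was silent.

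The RNA came from cells labelled Huh7, a human hepatocellular carcinoma line, kept for 24 h with DMSO, the solvent, or for 24 h with sorafenib, an oral inhibitor of the RAF kinases and of the VEGF and PDGF receptors. The labelled sorafenib dose is 3 mM; the unit may be an error, and this is not settled. Each group held 3 arrays, numbered 1 to 3, of a single cell line with no engineered allele given. The labels do not tell whether replicates were grown apart, so p-values cover the spread among these arrays, part of which could be technical. The comparison asks which transcripts sorafenib alone shifts, in a series whose title concerns combining it with protein disulfide isomerase inhibition. Other liver cancer lines of the design text are not analysed here.

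For every sample there were raw probe signals and a column of a normalized table, and these were not the same measurements. The Spearman correlation across probes, which are not independent replicates, was 0.848 to 0.863 between a sample's own columns in the sets and 0.923 to 0.942 between different arrays within a set, and the own column was the best match for 3 of 6 samples. Below, signal arrays stands for the first and value-table arrays for the second. They were tested apart and share the labels, and which of them came from Huh7 is not settled. The arrays had median signals of 120.2 to 144.5, with 16476 to 17476 of 47323 probes above detection. All 9 hepatocyte markers were above the filter in each set, with ALB at 15.23 and AFP at 14.55 (log2 mean of the DMSO signal arrays), but FGB stood at 6.32 on the signal arrays and 14.49 on the value-table arrays. Of 11 stromal, endothelial and immune markers, 4 passed the filter on the signal arrays (CD68, CD14, ACTA2, PDGFRB) and 3 on the value-table arrays (CD68, CD14, PECAM1), while PTPRC, CD3E, VWF, COL1A1, COL1A2 and COL3A1 passed in neither. The summed linear level of those that passed was 9181 to 9550 on DMSO and 12720 to 14750 on sorafenib signal arrays, and 2401 to 2648 against 2244 to 2393 on the value-table arrays. Most of the former was ACTA2, which rose by 0.65 on the log2 scale (limma adjusted p = 0.000129). PDGFRB fell from a mean log2 level of 6.40 to 5.24 (limma adjusted p = 0.00266) and was detected on 3 DMSO and 0 sorafenib signal arrays, and CD14 and CD68 had changes of -0.23 and 0.01 (0.113 and 0.946). None of the 3 on the value-table arrays passed, and PECAM1 did with the replicate block (-0.34, adjusted p = 0.00265). The part of these markers in the chaperone results was not tested.

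HSP70 proteins bind exposed stretches of unfolded proteins in cycles of ATP hydrolysis that HSP40 proteins start and that exchange factors such as the HSP110 proteins and BAG3 end. HSP90 takes over clients, kinases and steroid receptors among them, with the help of co-chaperones that load, hold or release the client. Small heat shock proteins hold unfolded proteins without ATP, the CCT ring folds actin and tubulin, and HSPD1 with HSPE1 forms the folding chamber of mitochondria. Many of these genes carry heat shock elements, inverted repeats of the unit GAA to which heat shock factors bind.

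RefSeq promoter windows of the build GRCh38.p14, reaching from 250 bases before to 50 after each annotated start, matched 34 of the 37 genes, in 50 windows. A run of 3 heat shock units, written GAANNTTCNNGAA or TTCNNGAANNTTC and searched without a mismatch on both strands, occurred in 8 of the 50 windows and in 0.49% of all 35116 windows. The 8 genes that held it were CHORDC1, DNAJA1, DNAJB6, HSP90AA1, HSP90AB1, HSPA8, HSPD1 and SERPINH1. With 2 units, GAANNTTC or TTCNNGAA, which also lie within every run of 3, the shares were 42.0% of the member windows and 13.5% of all windows. The windows of the 5 genes with a run of 3 that passed the expression test in either set are printed because their levels are followed below, and that of HSPB1, with a run of 2 only, because its level moved the opposite way on the signal arrays. Each covers 250 bases before to 20 after the start, and capitals mark the matches. A match describes the letters and does not show that a factor binds there.
CHORDC1, chr11:90223030-90223299, minus strand: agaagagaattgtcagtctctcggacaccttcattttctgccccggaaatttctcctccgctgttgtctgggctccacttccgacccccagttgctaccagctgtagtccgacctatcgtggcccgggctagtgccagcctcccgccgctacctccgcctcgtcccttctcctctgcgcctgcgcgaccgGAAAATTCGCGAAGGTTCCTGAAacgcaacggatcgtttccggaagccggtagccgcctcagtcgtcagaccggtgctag
HSP90AA1, chr14:102087025-102087294, minus strand: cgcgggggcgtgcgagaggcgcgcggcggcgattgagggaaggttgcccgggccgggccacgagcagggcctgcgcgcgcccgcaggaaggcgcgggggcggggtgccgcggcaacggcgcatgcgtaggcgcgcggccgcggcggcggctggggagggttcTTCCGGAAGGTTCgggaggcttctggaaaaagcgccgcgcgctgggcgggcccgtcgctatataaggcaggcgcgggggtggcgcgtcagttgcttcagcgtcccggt
HSP90AB1, chr6:44247693-44247962, plus strand: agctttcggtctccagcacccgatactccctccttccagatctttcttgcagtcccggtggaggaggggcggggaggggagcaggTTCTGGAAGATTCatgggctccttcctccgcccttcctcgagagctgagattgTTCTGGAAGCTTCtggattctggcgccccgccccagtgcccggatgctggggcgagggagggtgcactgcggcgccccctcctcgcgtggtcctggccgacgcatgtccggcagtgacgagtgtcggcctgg
DNAJA1, chr9:33025023-33025292, plus strand: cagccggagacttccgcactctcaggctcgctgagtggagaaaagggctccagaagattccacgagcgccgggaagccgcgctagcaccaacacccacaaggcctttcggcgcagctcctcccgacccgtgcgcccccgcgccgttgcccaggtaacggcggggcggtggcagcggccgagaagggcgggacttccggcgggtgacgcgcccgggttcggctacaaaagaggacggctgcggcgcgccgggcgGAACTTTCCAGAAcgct
HSPA8, chr11:123062117-123062386, minus strand: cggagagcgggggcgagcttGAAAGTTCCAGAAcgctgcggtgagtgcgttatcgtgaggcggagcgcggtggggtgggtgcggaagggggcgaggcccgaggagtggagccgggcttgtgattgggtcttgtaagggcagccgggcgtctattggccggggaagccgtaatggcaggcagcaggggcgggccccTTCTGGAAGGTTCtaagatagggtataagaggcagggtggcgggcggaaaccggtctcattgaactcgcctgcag
HSPB1, chr7:76302423-76302692, plus strand: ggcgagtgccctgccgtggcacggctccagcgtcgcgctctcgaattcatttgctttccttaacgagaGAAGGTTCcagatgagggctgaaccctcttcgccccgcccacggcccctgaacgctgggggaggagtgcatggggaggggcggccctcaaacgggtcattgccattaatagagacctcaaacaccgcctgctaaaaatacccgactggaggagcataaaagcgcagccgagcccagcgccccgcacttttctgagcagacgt

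The printed windows differed in how the repeats lay. CHORDC1 held 3 overlapping matches that together form an unbroken stretch of repeats, between 60 and 50 bases before the start by their first letters. HSP90AB1 held 2 matches, 165 and 112 bases before its start, and HSPA8 held 2, at 230 and 55 bases. HSP90AA1 had 1 match 88 bases before its start, while the DNAJA1 match lay just after the start. HSPD1 and HSPE1, read from opposite strands, shared 204 bases between their windows for one of the HSPD1 starts and 0 for the other.

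With sorafenib, more of the chaperone genes fell than rose in each set, and the changes were small. On the signal arrays 33 of the 35 genes could be tested, of which 2 rose and 9 fell at a Benjamini-Hochberg adjusted p under 0.05, adjusted over all 17115 probes kept. Among all 10523 genes tested there, 16.8% rose and 14.2% fell. The value-table arrays allowed 34 genes, of which 1 rose and 13 fell, where 11.3% of all 10595 genes rose and 8.17% fell. The median log2 change of the members was -0.12 on the signal arrays and -0.25 on the value-table arrays, beside medians of -0.00103 and 0.00767 over all genes tested. Since RNA was pooled from a whole culture, a lower level in every cell and fewer cells with a usual level cannot be told apart.

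Replicates of the same number in the 2 groups deviated together, and a fit with the replicate number as a block called 20 of 34 members lower on the value-table arrays, where 15.5% of all genes then fell, in place of 13. On the signal arrays the same block gave 3 higher and 13 lower, beside 22.4% and 21.5% of all genes. No call was lost with the block in either set. The arrays of the groups did not overlap for 3 genes that were higher and 12 that were lower on the signal arrays (24.6% and 22.8% of all genes), and for 1 higher and 19 lower on the value-table arrays (21.7% and 18.1%). None of the members passed limma's treat test for a change beyond 1.5-fold, which 1.47% of all genes passed on the signal arrays and 0.0472% on the value-table arrays. A change of that size was thus not shown, although some estimates exceeded it, such as 1.67-fold for FKBP4 on the signal arrays.

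**Figure D1:**
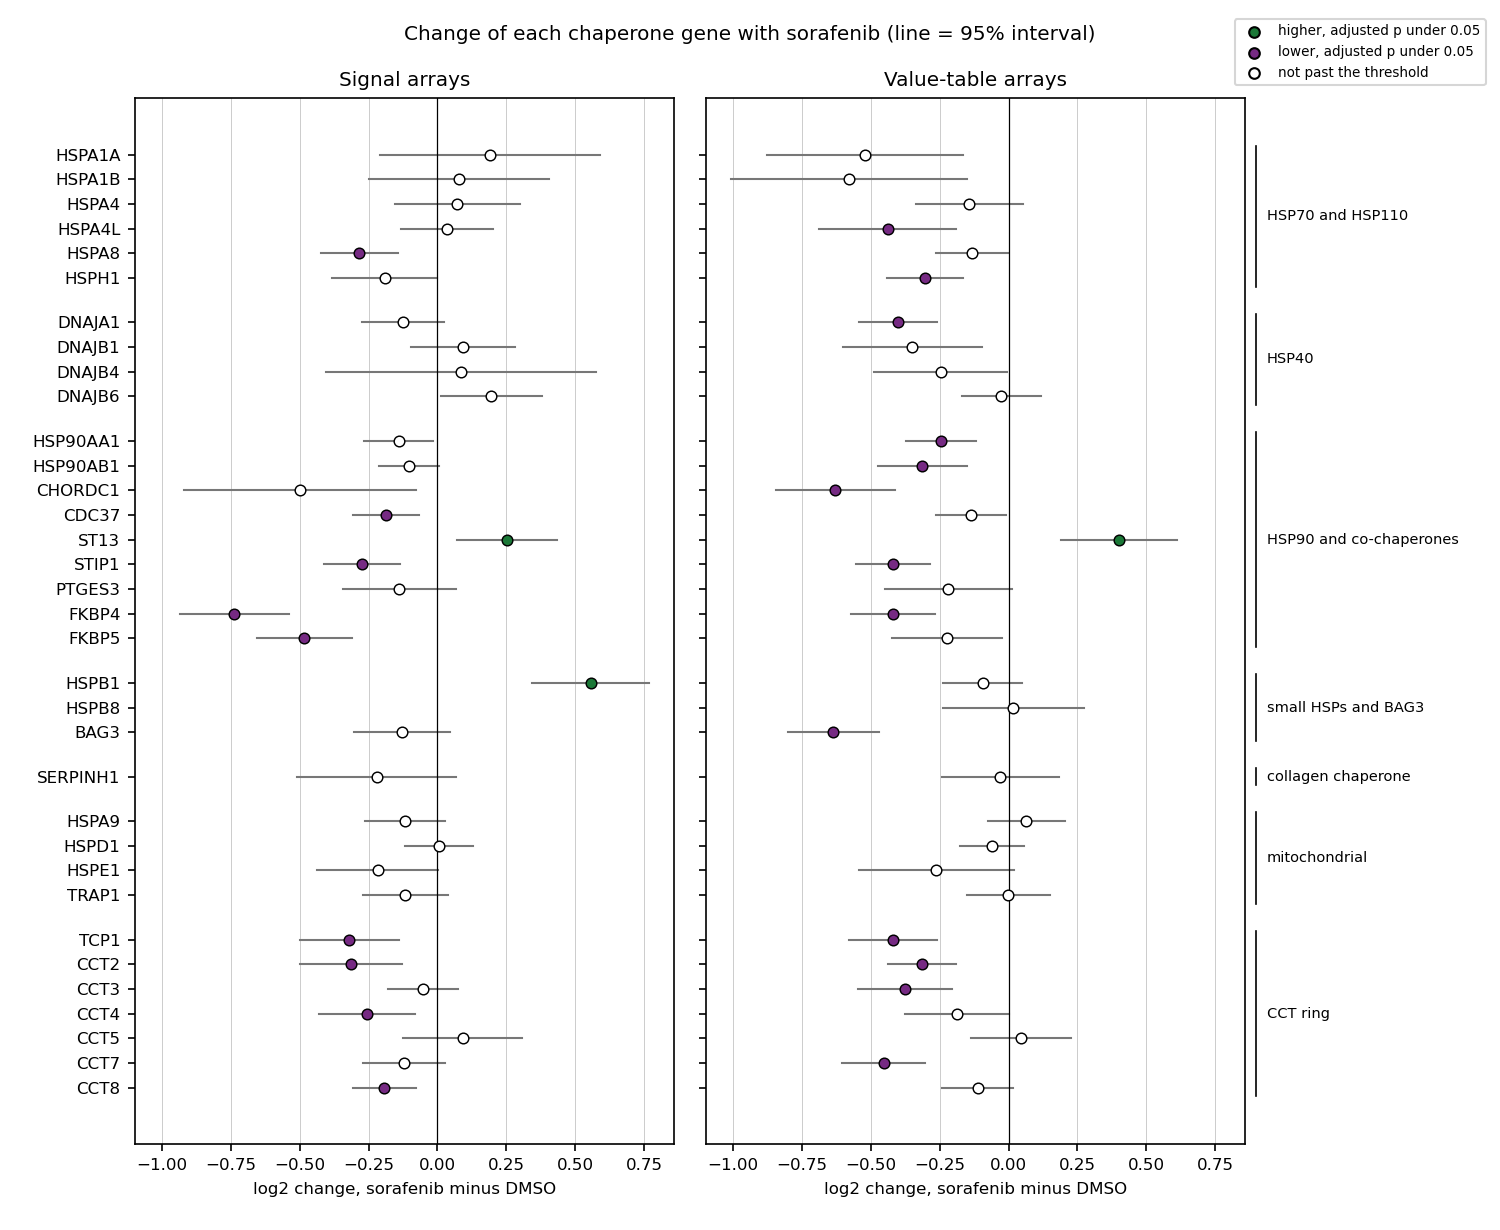
Log2 change of each chaperone gene with sorafenib on the signal arrays (left) and the value-table arrays (right), by class, as the limma estimate from 3 arrays a group with its 95% interval. Filled points passed an adjusted p of 0.05: 2 higher and 9 lower on the left, 1 higher and 13 lower on the right.

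By the brightest kept probe, which stands for its gene, 5 genes were called in the same direction in both sets. Co-chaperones of HSP90 were 3 of the 5: FKBP4 and STIP1 fell and ST13 rose. In what follows, levels are on the log2 scale in the order of replicates 1, 2 and 3, and changes are sorafenib minus DMSO on that scale with n = 3 per group. FKBP4, an immunophilin that carries steroid receptors on HSP90, read 10.54, 10.43 and 10.38 with DMSO and 9.69, 9.84 and 9.60 with sorafenib on the signal arrays. All 3 sorafenib arrays lay below all 3 DMSO arrays. The fitted change was -0.74 (SE 0.09, limma adjusted p = 0.000376), a 1.67-fold fall. FKBP4 on the value-table arrays read 10.85, 10.91 and 10.82 with DMSO and 10.39, 10.44 and 10.49 with sorafenib. The groups were again apart, with a change of -0.42 (SE 0.07, limma adjusted p = 0.00468). FKBP4 passed in all 16 settings tried for the signal arrays and all 12 for the value-table arrays.

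STIP1, also called HOP, which hands clients from HSP70 to HSP90 by holding both, fell in each set. Its signal arrays read 13.33, 13.38 and 13.28 with DMSO and 13.05, 13.14 and 12.98 with sorafenib. Its value-table arrays read 13.09, 12.99 and 13.07 with DMSO and 12.61, 12.70 and 12.59 with sorafenib. The groups did not overlap in either set. The log2 change was -0.27 (SE 0.06, limma adjusted p = 0.0097) and -0.42 (SE 0.06, limma adjusted p = 0.00293), in that order. With median scaling in place of quantile normalization the first was -0.32 with an adjusted p of 0.0890.

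ST13, also called HIP, which binds HSP70 and slows the release of ADP from it, was the only member that rose in both sets. It read 11.65, 11.85 and 11.79 with DMSO and 12.16, 11.97 and 11.92 with sorafenib on the signal arrays. The value-table arrays read 11.75, 11.67 and 12.02 with DMSO and 12.28, 12.12 and 12.23 with sorafenib. Each sorafenib array lay above every DMSO array of its set, although by as little as 0.07 between DMSO replicate 2 and sorafenib replicate 3 of the signal arrays. The log2 change was 0.25 (SE 0.08, limma adjusted p = 0.046) on the signal arrays and 0.40 (SE 0.09, limma adjusted p = 0.0198) on the value-table arrays. The first call held without sorafenib replicate 3 and was lost without any other array (adjusted p = 0.0634 to 0.141), with median scaling (0.361), without the filter on dim probes (0.0768) and without the intensity trend (0.107). The second was lost without DMSO replicate 1 (0.0679), DMSO replicate 2 (0.0577) or sorafenib replicate 1 (adjusted p = 0.0758).

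FKBP5, another HSP90 immunophilin that lowers the hormone affinity of the glucocorticoid receptor, fell on the signal arrays. They read 10.30, 10.24 and 10.28 with DMSO and 9.83, 9.70 and 9.85 with sorafenib, without overlap. The log2 change was -0.48 (SE 0.08, limma adjusted p = 0.0018). The value-table arrays, at 9.69, 9.43 and 9.64 with DMSO and 9.42, 9.31 and 9.37 with sorafenib, were also apart, with a change of -0.22 (SE 0.09, limma adjusted p = 0.117), and passed with the replicate block (adjusted p = 0.0277).

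CHORDC1, a zinc-binding partner of HSP90 that heat shock induces and whose promoter is printed above, read 10.41, 10.36 and 10.17 with DMSO and 9.78, 9.74 and 9.54 with sorafenib on the value-table arrays. It fell there by more than the spread of either group, with a log2 change of -0.63 (SE 0.10, limma adjusted p = 0.00376), or 1.55-fold. The signal arrays read 9.79, 9.96 and 9.69 with DMSO and 9.58, 9.57 and 8.80 with sorafenib. Sorafenib replicate 3 was far below the other sorafenib arrays, and the change of -0.50 (SE 0.19, limma adjusted p = 0.0789) did not pass, though it did with the replicate block (adjusted p = 0.00495). Without sorafenib replicate 3 the change was -0.24.

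The HSP90 genes themselves fell on the value-table arrays. HSP90AA1, the stress-inducible cytosolic form, read 14.89, 14.80 and 14.94 with DMSO and 14.57, 14.67 and 14.65 with sorafenib on the value-table arrays. There HSP90AB1, the constitutive form, read 13.73, 13.51 and 13.72 with DMSO and 13.39, 13.36 and 13.27 with sorafenib. Both fell, with changes of -0.25 (SE 0.06, limma adjusted p = 0.0182) and -0.31 (SE 0.07, limma adjusted p = 0.0181). Both calls were lost without DMSO replicate 1 (adjusted p = 0.0571 and 0.0645) or DMSO replicate 3 (0.0588 and 0.0558), that of HSP90AA1 without sorafenib replicate 1 (0.0698) and that of HSP90AB1 without sorafenib replicate 3 (0.0516). Their changes on the signal arrays were -0.14 (SE 0.06, limma adjusted p = 0.0891) and -0.10 (SE 0.05, limma adjusted p = 0.153), of which only that of HSP90AA1 passed with the replicate block (adjusted p = 0.0478). CDC37, which brings kinases to HSP90, fell on the signal arrays, with a change of -0.19 (SE 0.05, limma adjusted p = 0.0294). That call held without DMSO replicate 3 and was lost without any other array (adjusted p = 0.0547 to 0.101), with median scaling (0.204), without the filter on dim probes (0.0697) and without the intensity trend (0.109). The value-table arrays gave CDC37 a change of -0.14 (SE 0.06, limma adjusted p = 0.125). PTGES3, the co-chaperone p23 that steadies the closed form of HSP90, had changes of -0.14 and -0.22 with adjusted p of 0.300 and 0.176 in limma, the latter 0.0317 with the replicate block. Without DMSO replicate 2 the second change was -0.13.

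**Figure D2:**
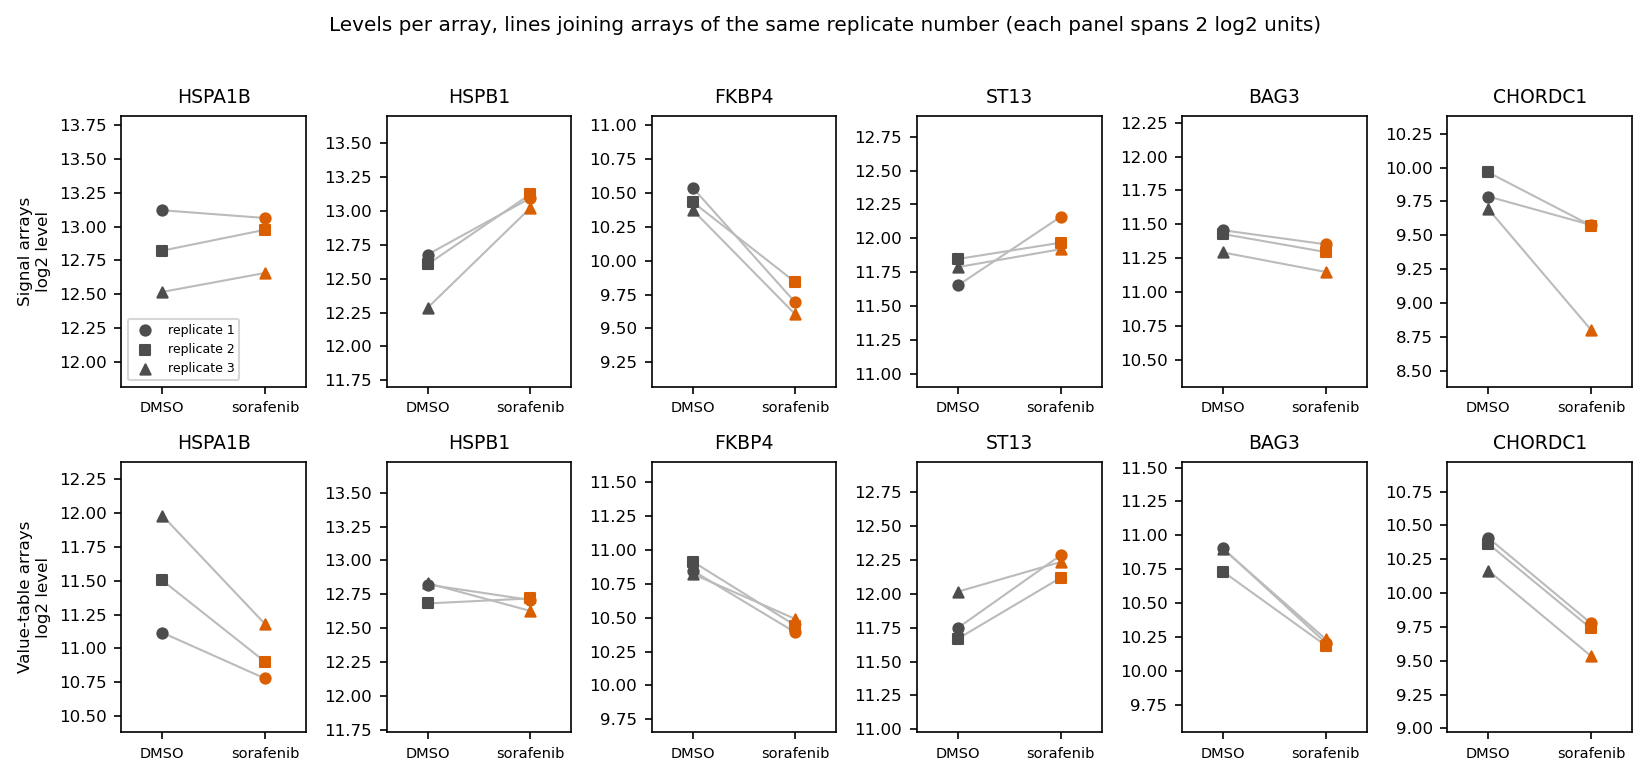
Log2 level of 6 chaperone genes on each of the 3 DMSO and 3 sorafenib arrays, with signal arrays in the upper row and value-table arrays in the lower; lines join arrays of the same replicate number, and each panel spans 2 log2 units. FKBP4 fell and ST13 rose in both rows, HSPB1 rose in the upper row, and BAG3 and CHORDC1 fell in the lower row.

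In 4 of 6 cases HSP70 family genes had positive changes on the signal arrays by the probe that stands for the gene. None of these 4 passed. HSPA4 was among them, and its second probe, taken up below, had the opposite sign. All 6 had negative changes on the value-table arrays, of which 2 passed. HSPA8, the constitutive HSP70 that works in every cell, fell on the signal arrays, which read 14.64, 14.69 and 14.68 with DMSO and 14.34, 14.51 and 14.31 with sorafenib with no overlap. The log2 change was -0.28 (SE 0.06, limma adjusted p = 0.00892). Its value-table arrays overlapped, with a change of -0.13 (SE 0.06, limma adjusted p = 0.154), while its other probe fell there by 0.19 (limma adjusted p = 0.0478). HSPA8 was the only member with a run of 3 heat shock units that was called on the signal arrays by the probe standing for the gene, 1 of 8, beside 7 called lower of 23 members whose windows lacked it and 14.2% of all genes. On the value-table arrays 4 of 8 such genes fell (DNAJA1, HSP90AA1, HSP90AB1 and CHORDC1), beside 8 of 24 without it and 8.17% of all genes. The difference between genes with and without the run was not tested.

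HSPA1A and HSPA1B encode the same stress-inducible HSP70 from near-identical genes, so a probe may read both, and their values are uncertain as measures of either. HSPA1B read 11.12, 11.50 and 11.98 with DMSO and 10.78, 10.90 and 11.18 with sorafenib on the value-table arrays. The DMSO arrays spread over 0.865 log2 units and overlapped the sorafenib arrays, but sorafenib was lower within every replicate number. Its change was -0.58 (SE 0.19, limma adjusted p = 0.0662), and the adjusted p was 4.31e-05 with the replicate block and 0.0223 without DMSO replicate 1. Without DMSO replicate 3 the change was -0.36. HSPA1A read 9.30, 9.22 and 9.58 with DMSO and 8.52, 8.86 and 9.16 with sorafenib there, without overlap. Its change was -0.52 (SE 0.16, limma adjusted p = 0.0507), and the adjusted p was 0.000327 with the block and 0.0167 without sorafenib replicate 3. The signal arrays gave changes of 0.19 (SE 0.18, limma adjusted p = 0.47) for HSPA1A and 0.08 (SE 0.15, limma adjusted p = 0.73) for HSPA1B, whose groups overlapped.

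The other members of the family are nucleotide exchange factors of the HSP110 group. HSPH1 fell on the value-table arrays, which read 13.08, 13.21 and 13.20 with DMSO and 12.89, 12.80 and 12.89 with sorafenib. The groups were apart, with a change of -0.30 (SE 0.06, limma adjusted p = 0.0116). Its signal arrays gave -0.19 (SE 0.08, limma adjusted p = 0.128), with an adjusted p of 0.0387 with the replicate block and 0.0161 without sorafenib replicate 1, and a change of -0.11 without sorafenib replicate 3. HSPA4L also fell on the value-table arrays, with a change of -0.44 (SE 0.11, limma adjusted p = 0.0261). That call held without DMSO replicate 1 or sorafenib replicate 3 and was lost without any other array (adjusted p = 0.0698 to 0.0965). Its signal arrays had a change of 0.04, which did not pass (limma adjusted p = 0.760). HSPA4 had changes of 0.07 and -0.14 by its brighter probe, neither past the threshold (limma adjusted p = 0.645 and 0.295).

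Of the HSP40 proteins, which choose the clients of HSP70, DNAJA1 fell on the value-table arrays. They read 14.05, 14.19 and 14.00 with DMSO and 13.70, 13.71 and 13.62 with sorafenib, so that the sorafenib arrays lay at least 0.29 below the DMSO arrays, and the change was -0.40 (SE 0.06, limma adjusted p = 0.00429). Its signal arrays overlapped, with -0.12 (SE 0.07, limma adjusted p = 0.201). DNAJB1, a heat-inducible HSP40 that works with HSPA1A, read 11.63, 11.58 and 11.92 with DMSO and 11.25, 11.26 and 11.56 with sorafenib on the value-table arrays, with no overlap. Its change was -0.35 (SE 0.11, limma adjusted p = 0.0615), and the adjusted p was 0.000323 with the replicate block and 0.0267 without sorafenib replicate 3. The signal arrays gave DNAJB1 a change of 0.09 (SE 0.08, limma adjusted p = 0.453). DNAJB4 did not pass in either set (0.09 and -0.25, limma adjusted p = 0.809 and 0.149) and was near the detection level on the signal arrays, at 6.40 on DMSO. DNAJB6, which keeps polyglutamine proteins from aggregating, had probes that disagreed and is taken up below.

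Among the small heat shock proteins HSPB1, known as HSP27, rose on the signal arrays. They read 12.68, 12.61 and 12.29 with DMSO and 13.10, 13.12 and 13.02 with sorafenib. DMSO replicate 3 was the lowest of all, and the lowest sorafenib array lay 0.34 above the highest DMSO array. The change was 0.56 (SE 0.10, limma adjusted p = 0.00264), or 1.47-fold, and passed in 15 of 16 settings, the exception being the value-table arrays in place of the signals. Those read 12.82, 12.68 and 12.83 with DMSO and 12.71, 12.72 and 12.63 with sorafenib, overlapped and gave a change of -0.09 (SE 0.06, limma adjusted p = 0.355). Whether HSPB1 changed differently in the sets was not tested.

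HSPB8, the partner of BAG3 in directing unfolded proteins to autophagy, was detected on 0 of 6 signal arrays. Its value-table arrays read 9.51, 9.44 and 9.21 with DMSO and 9.44, 9.22 and 9.56 with sorafenib. These overlapped, with a change of 0.02 (SE 0.11, limma adjusted p = 0.938). BAG3, an exchange factor of HSP70 that binds small heat shock proteins and is a classic target of HSF1, had with CHORDC1 the largest falls there, counting the probe that stands for each gene. It read 10.90, 10.73 and 10.90 with DMSO and 10.21, 10.19 and 10.23 with sorafenib. All sorafenib arrays lay within 0.05 of each other and at least 0.50 below the DMSO arrays, and the change was -0.64 (SE 0.07, limma adjusted p = 0.00133), or 1.55-fold, past the threshold in all 12 settings. The BAG3 signal arrays were lower with sorafenib within each replicate number but overlapped, with a change of -0.13 (SE 0.08, limma adjusted p = 0.261), and 0.0965 as the adjusted p with the block.

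By the probe that stands for the gene, CCT ring subunits fell in 4 of 7 cases in each set, where 14.2% and 8.17% of all genes fell. Of the 4, 2 were the same. TCP1, the first subunit named, and CCT2 fell in both. TCP1 read 11.74, 11.63 and 11.61 with DMSO and 11.49, 11.22 and 11.31 with sorafenib on the signal arrays. Its value-table arrays read 11.53, 11.65 and 11.62 with DMSO and 11.09, 11.21 and 11.25 with sorafenib. The groups were apart in both, with changes of -0.32 (SE 0.08, limma adjusted p = 0.0164) and -0.42 (SE 0.07, limma adjusted p = 0.00552). CCT2 read 13.27, 13.26 and 13.27 with DMSO and 13.00, 12.89 and 12.96 with sorafenib on the value-table arrays, where the DMSO arrays lay within 0.01 of each other, and fell, with a change of -0.31 (SE 0.06, limma adjusted p = 0.00653). Its signal arrays, at 12.94, 13.07 and 12.74 with DMSO and 12.61, 12.64 and 12.56 with sorafenib, gave -0.31 (SE 0.08, limma adjusted p = 0.0198).

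CCT4 and CCT8 passed on the signal arrays alone, with -0.26 (SE 0.08, limma adjusted p = 0.0365) and -0.19 (SE 0.05, limma adjusted p = 0.021). By the probe that stands for the gene, CCT3 and CCT7 passed on the value-table arrays alone, with -0.38 (SE 0.08, limma adjusted p = 0.0112) and -0.45 (SE 0.07, limma adjusted p = 0.00323). The other set gave -0.19 for CCT4 (limma adjusted p = 0.162, and 0.0467 with the replicate block), -0.11 for CCT8 (0.212), -0.05 for CCT3 (0.531) and -0.12 for CCT7 (0.205, and 0.0471 without DMSO replicate 1). These differences between the sets were not tested. On the signal arrays a dimmer probe of CCT3 fell by 0.30 (limma adjusted p = 0.0227). A dimmer CCT7 probe fell there by 0.25 (limma adjusted p = 0.0418), and another had a change of -0.06 (0.786). CCT5 had changes of 0.09 and 0.05 and passed in neither (limma adjusted p = 0.529 and 0.752). The class median was -0.19 on the signal arrays and -0.31 on the value-table arrays. All 4 calls of the signal arrays were lost with median scaling (adjusted p = 0.0815 to 0.248), without the intensity trend (0.0501 to 0.0867), and without DMSO replicate 2 (0.0514 to 0.148) or sorafenib replicate 2 (0.0510 to 0.119). Among the other arrays, CCT2 was lost without sorafenib replicate 1 (adjusted p = 0.0510) or 3 (0.0597), CCT8 without DMSO replicate 3 (0.0562) or sorafenib replicate 1 (0.0683), and CCT4 without any but DMSO replicate 1 (0.0668 to 0.0673). Without the filter on dim probes CCT4 (adjusted p = 0.0895) and CCT8 (0.0561) were lost too. The 4 calls of the value-table arrays held in all 12 settings.

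None of the 4 mitochondrial chaperones passed in either set by the probe that stands for the gene, beside 31.0% of all genes called in either direction on the signal arrays and 19.5% on the value-table arrays. HSPD1, the HSP60 barrel, read 15.01, 14.97 and 15.08 with DMSO and 14.98, 14.98 and 15.10 with sorafenib on the signal arrays. The groups lay on each other, and the 95% interval of its log2 change ran from -0.12 to 0.13. The interval was -0.18 to 0.06 on the value-table arrays. HSPA9, the HSP70 that pulls proteins into mitochondria, had intervals of -0.26 to 0.03 and -0.08 to 0.21. TRAP1, the mitochondrial HSP90, had intervals of -0.27 to 0.04 and -0.15 to 0.15. HSPE1, the lid of the HSPD1 barrel, read 11.98, 12.29 and 12.51 with DMSO and 11.89, 11.94 and 12.15 with sorafenib on the value-table arrays, lower with sorafenib within each replicate number. Its change was -0.26 (SE 0.12, limma adjusted p = 0.183), and the adjusted p was 0.00503 with the block and 0.0461 without DMSO replicate 1, while the change was -0.14 without DMSO replicate 3. The signal arrays gave HSPE1 -0.22 (SE 0.10, limma adjusted p = 0.134), with an adjusted p of 0.0446 without sorafenib replicate 1 and a change of -0.13 without sorafenib replicate 3. SERPINH1, the collagen chaperone HSP47 of the endoplasmic reticulum, had changes of -0.22 (SE 0.13, limma adjusted p = 0.239) and -0.03 (SE 0.09, limma adjusted p = 0.865), and on the signal arrays 0.0190 as the adjusted p with the block. The signal change was -0.079 without sorafenib replicate 3.

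**Figure D3:**
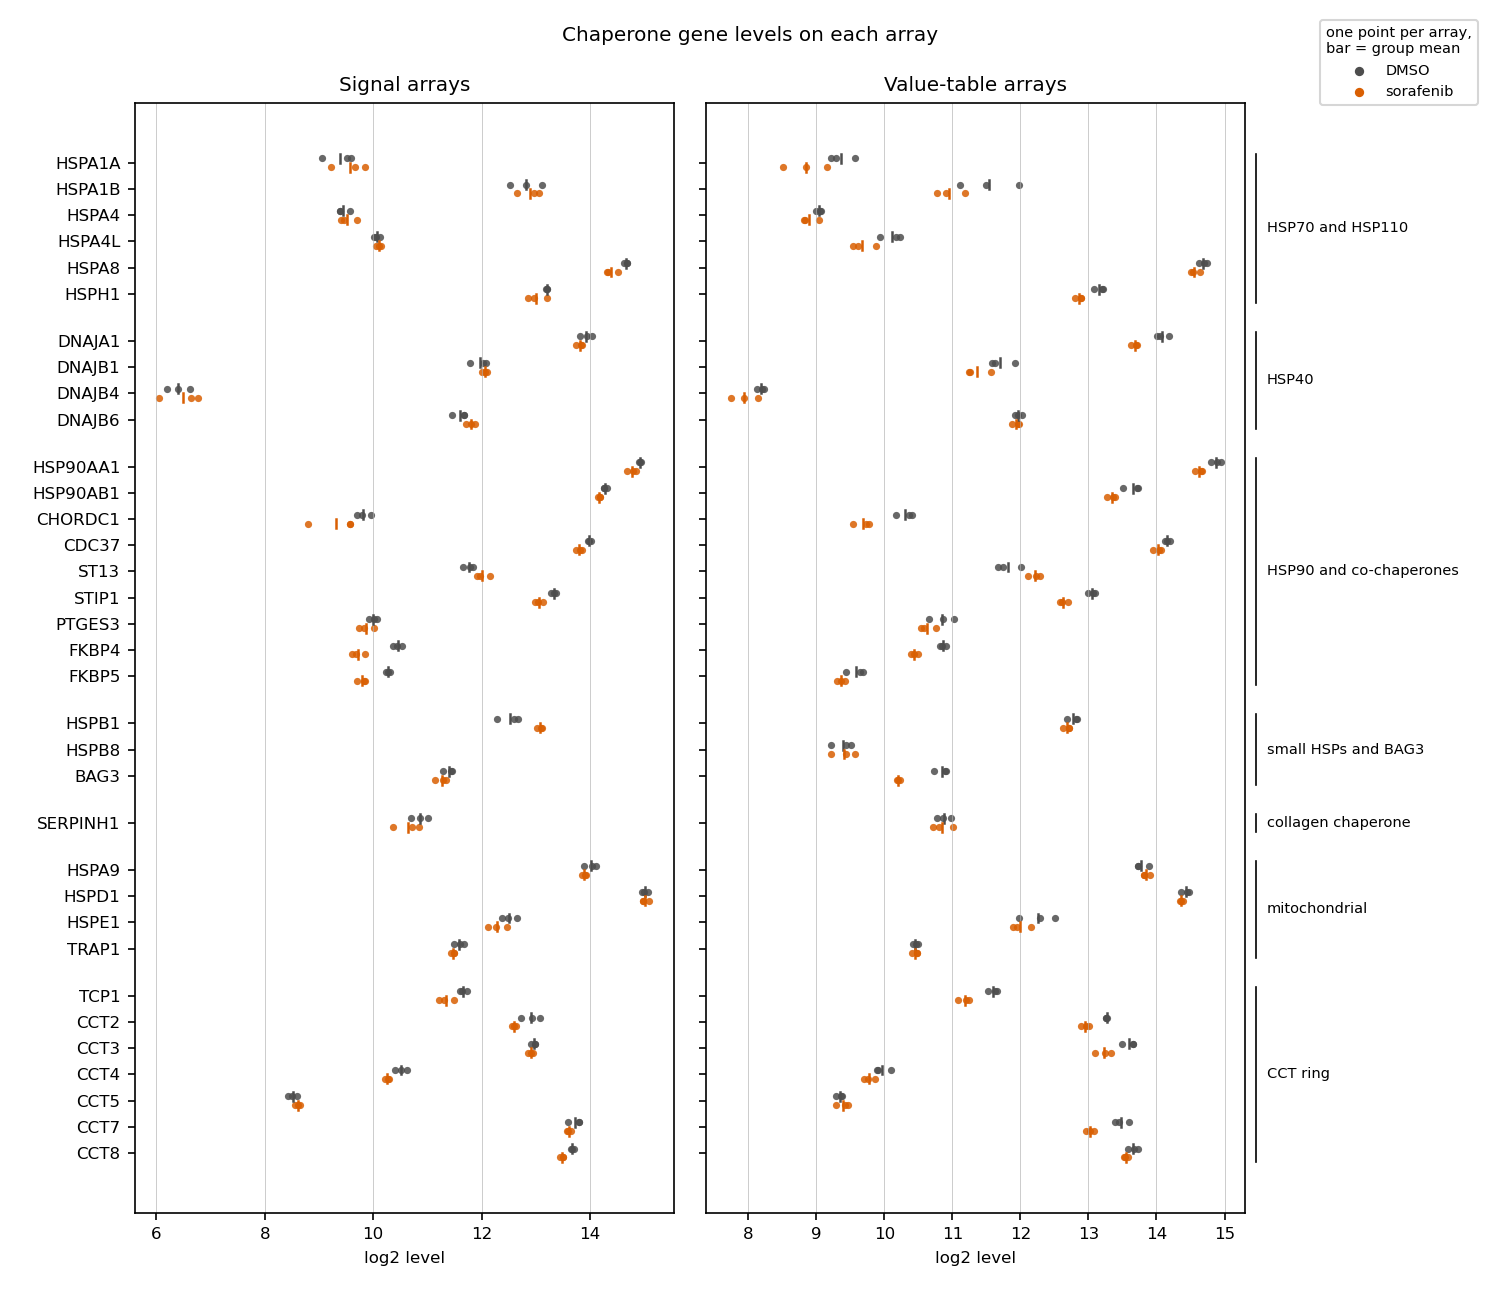
Log2 level of each tested chaperone gene on every array, signal arrays on the left and value-table arrays on the right, with 1 point per array and a bar at the group mean of 3. Levels of different genes come from different probes and are not comparable; the separation of orange from grey within a gene is what is tested. HSPB8 has no points on the left, where it was detected on 0 of 6 arrays.

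Class medians summarise these values. They were 0.05 on the signal arrays and -0.37 on the value-table arrays for HSP70, 0.09 and -0.30 for HSP40, -0.19 and -0.25 for HSP90 and its co-chaperones, 0.21 and -0.09 for the small heat shock proteins with BAG3, and -0.12 and -0.03 for the mitochondrial genes. The positive medians of the signal arrays were not stable in sign: that of HSP70 was -0.13 without sorafenib replicate 1, that of HSP40 -0.070 when its probes were averaged, and that of the small heat shock proteins -0.13 without the filter on dim probes, which adds HSPB8. Without sorafenib replicate 1 the other HSPA4 probe became the brightest and stood for the gene, with a change of -0.31. Part of that HSP70 shift is therefore a change of probe. By the probe that stands for the gene, all 4 HSP40 genes had negative changes on the value-table arrays, of which 1 passed. On the signal arrays 3 of 4 had positive changes, none of which passed. The second probes of DNAJB4 and DNAJB6 had negative changes there. ST13 rose in both sets, and by the probe that stands for the gene STIP1, FKBP4, TCP1 and CCT2 fell in both. These were 4 of the 9 genes that fell on the signal arrays and 4 of the 13 on the value-table arrays.

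Several members were read by more than 1 kept probe, and the probes of a gene did not always share a call. In each set 10 genes had 23 such probes, and for 5 of the 10 all probes of the gene shared a call. HSPA8 fell with both probes on the signal arrays. HSP90AA1 with 2 kept probes and TCP1 and CCT7 with 3 each fell with all of them on the value-table arrays, CCT7 by as much as 0.78. A further HSP90AA1 probe was kept in neither set and not tested. It was detected on 0 DMSO and 2 sorafenib signal arrays, with mean levels of 5.39 and 6.13. Its value-table means were 7.26 and 7.31. DNAJB6 split in both sets: its brighter probe had changes of 0.20 and -0.03, which did not pass (limma adjusted p = 0.107 and 0.818, the former 0.0180 with the replicate block and 0.12 as its change without DMSO replicate 3), and its dimmer probe fell by 0.27 and 0.37 (0.0341 and 0.0148). HSPD1 did so too, since its dimmest probe, at 8.10 and 8.31 on DMSO, fell by 0.43 and 0.45 (limma adjusted p = 0.0358 and 0.00945) while its brightest, given above, did not pass. The HSPD1 probe of middle level had changes of -0.04 and -0.21 (limma adjusted p = 0.669 and 0.0782, the latter 0.00979 with the replicate block). CCT3 split in both sets as well, by a different probe in each. On the signal arrays its dimmer probe passed, at -0.30 (limma adjusted p = 0.0227), and its brighter one did not. On the value-table arrays the brighter probe passed and the dimmer one, at -0.25, did not (limma adjusted p = 0.0900, and 0.00530 with the replicate block).

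HSPE1 probes took opposite signs on the value-table arrays, at -0.26 and 0.31, neither past the threshold (limma adjusted p = 0.183 and 0.208). On the signal arrays the dimmer HSPE1 probe had a change of -0.30, of the same sign as the brighter one (limma adjusted p = 0.0528, and 0.00507 with the replicate block). HSPA4 had a second probe that fell by 0.36 on the value-table arrays (limma adjusted p = 0.0280). On the signal arrays that probe had a change of -0.31 (limma adjusted p = 0.107, and 0.0312 with the replicate block), opposite in sign to the brighter one. The DNAJB4 probes also took opposite signs there, at 0.09 and -0.29 (limma adjusted p = 0.809 and 0.273). TCP1 on the signal arrays ranged from -0.07 to -0.70 over its 3 probes, of which 2 passed. The array annotation names the gene and not the transcript of each probe, so which isoforms the probes read is not known here. Counted over probes, 15 of 46 fell and 2 rose on the signal arrays, where 12.7% of all probes fell and 14.1% rose. The value-table arrays had 22 of 47 lower and 1 higher, beside 8.66% and 9.08% of all probes.

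**Figure D4:**
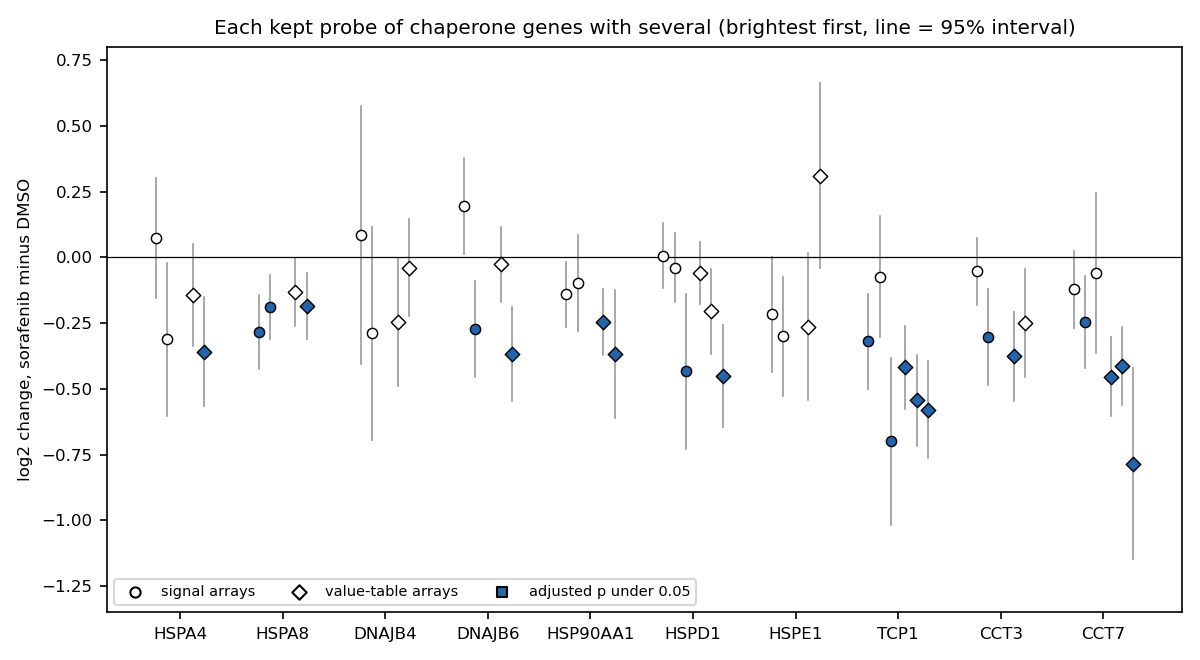
Log2 change with its 95% interval for each kept probe of the 10 chaperone genes with several, brightest probe first; circles are signal arrays, diamonds value-table arrays, and filled symbols passed an adjusted p of 0.05. CCT3, DNAJB6 and HSPD1 have filled and open symbols in both sets, and all 3 CCT7 diamonds are filled.

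Other genes of the pathway came from a list of 68 further chaperones, partners and heat shock factor targets, of which 53 were tested in each set. Of these, 4 rose and 12 fell on the signal arrays and 5 rose and 11 fell on the value-table arrays, with medians of -0.10 and -0.08, where 16.8% and 14.2% of all genes rose and fell in the first set and 11.3% and 8.17% in the second. The replicate block gave 6 higher and 17 lower in each set, beside 22.4% and 21.5% of all genes on the signal arrays and 19.1% and 15.5% on the value-table arrays. Among genes past the threshold without the block, the largest rises on the signal arrays were ATF3, a stress transcription factor, by 0.46 (limma adjusted p = 0.0341), HMOX1, the heme oxygenase of the oxidative stress response, by 0.46 (0.00101), and DNAJB2, a neuron-rich HSP40, by 0.42 (0.00310). The largest falls were in IER5, an activator of HSF1, by 0.49 (limma adjusted p = 0.0210), NUDC, an HSP90 co-chaperone, by 0.48 (0.000382), and GRPEL1, the exchange factor of HSPA9, by 0.47 (0.0115). The value-table arrays had their largest rises in LONP1, a mitochondrial protease, by 0.53 (limma adjusted p = 0.00507), ATF3 by 0.51 (0.00998) and TSC1, which also acts as an HSP90 co-chaperone, by 0.34 (0.0188). Falls there were largest in CACYBP, a partner of the ubiquitin ligase SIAH1, by 0.51 (limma adjusted p = 0.00320), DNAJA4, an HSP40, by 0.50 (0.0121), and HSPA14, a ribosome-bound HSP70, by 0.42 (0.00910). DNAJA4 was near the filter level there, at 8.03 with DMSO and 7.53 with sorafenib, and was not detected on any signal array. On the signal arrays CACYBP fell by 0.29 (limma adjusted p = 0.0265) and HSPA14 by 0.34 (0.00811). LONP1 had a change of 0.02 there (limma adjusted p = 0.887) and TSC1 of 0.25 (0.0537, and 0.0207 with the replicate block). Of the genes named from the signal arrays, DNAJB2 had a change of -0.07 on the value-table arrays (limma adjusted p = 0.619). IER5 is one of the listed heat shock factor targets outside the chaperones, none of which was called lower there. HMOX1 is taken up below, and the value-table changes of NUDC and GRPEL1 are not given here.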

How the data were processed

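Per the file headers, the authors deposited raw probe intensity, each with a detection p-value, and separately a value table that from its values was on a log2 scale; how the authors normalized it is not given in the sources used here. From the signals, neqc of limma 3.58.1 in R 4.3.3 subtracted background and set equal quantiles (offset 16). Probes with detection p under 0.01 on at least 3 of 6 arrays were kept, 17115 of 47323; value-table probes were kept above the matching level of 7.40 on at least 3 columns, 17122. Groups were compared by two-sided limma fits (lmFit, then eBayes with trend), adjusted over all kept probes by Benjamini-Hochberg at 0.05, and with treat at 1.5-fold. The kept probe with the highest mean, picked anew in each fit, stood for its gene, named from the platform annotation (30113 probes with 1 symbol, 8 with several, 17202 with none). The fit was tested on simulated data.

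Same-numbered replicates deviated together (correlations of 0.337, 0.321 and 0.384 for the signals, 0.432, 0.317 and 0.666 for the value table, over probes), so a fit with the replicate number as a block is given where it changed a call. Pairs of different numbers had correlations of -0.353 to 0.033 for the signals and -0.518 to 0.294 for the value table. Deviations from a mean of 3 arrays offset one another, so negative values arise by construction. The alternatives were the background correction, the scaling, the filter, the trend, array weights, the probe choice, the block, the value table, and leaving out each array. All 37 members are named, and from the wider list the 3 largest rises and 3 largest falls past the threshold in each set. The members and lists were chosen with earlier results of these data known. Precision is limited by having 3 arrays a group.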

Additional observations from a re-analysis of the deposited data

Results flagged for a closer look

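These genes had every sorafenib array above every DMSO array in one set of values and every sorafenib array below in the other. All 3 come from the wider list and were picked out after their values were seen, and the difference between the sets was not tested for any of them. Among all genes, 24.6% were apart and higher on the signal arrays, and 18.1% were apart and lower on the value-table arrays. The share of all genes apart in opposite directions was not counted. CRYAB, a small heat shock protein, had a log2 change of 0.576 on the signal arrays (limma adjusted p = 0.0545) and -0.248 on the value-table arrays (0.0766), and passed in both with the replicate block (0.00172 and 0.0312). HMOX1 rose by 0.457 on the signal arrays (limma adjusted p = 0.00101) and had a change of -0.118 on the value-table arrays (0.344). HSBP1, which binds HSF1, had a change of 0.0979 on the signal arrays (limma adjusted p = 0.295) and fell on the value-table arrays, with a change of -0.242 (0.0389). Its signal groups were barely apart, with DMSO replicate 2 at 12.282 and sorafenib replicate 3 at 12.285.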

How the results depend on the processing

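Of the chaperone calls, FKBP4 alone passed in all 16 alternatives of the signal arrays, and BAG3, CCT2, CCT3, CCT7, CHORDC1, DNAJA1, FKBP4, HSPH1, STIP1 and TCP1 passed in all 12 of the value-table arrays. The 16 include the value table in place of the signals, which is another measurement and not another processing. FKBP5, HSPA8 and HSPB1 were lost only there. The signal arrays had 4588 probes past the threshold (2419 higher, 2169 lower) and the value-table arrays 3038 (1555 and 1483). Median scaling gave 2627 signal probes (1370 and 1257), 1 member higher and 3 lower, a CCT ring median of -0.24 and -0.0052 for HSPD1, whose sign turned; it moved the median of all genes by -0.0102. Without the filter on dim probes 1 member was higher and the small heat shock median, with HSPB8 included, was -0.13. Without the intensity trend 1 member was higher and 4 lower. Taking the mean of a gene's probes gave the signal arrays an HSP40 median of -0.070 and turned HSPA4 (-0.12), DNAJB4 (-0.10), DNAJB6 (-0.038) and HSPD1 (-0.16), none past the threshold before or after. On the value-table arrays it gave medians of -0.31 for HSP90 and 0.011 for the mitochondrial genes and turned HSPE1 (0.024). By this mean HSPE1 passed as lower on the signal arrays, and HSPA4 and HSPD1 on the value-table arrays; without the filter HSPA1A passed on the latter. With array weights DNAJA1, CHORDC1 and HSPE1 of the signal arrays and HSPA1A, HSPA1B and DNAJB1 of the value-table arrays also passed as lower. They turned HSPB8 (-0.0067), TRAP1 (0.012) and SERPINH1 (0.017) on the value-table arrays.

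The replicate block, which pairs arrays by number, left 3387 signal probes lower. On the value-table arrays it gave 5456 probes (2721 and 2735) and 20 members lower. By the probe that stands for the gene, it changed no call among the 37 genes other than those given with it above. The value table in place of the signals gave 1 member higher and medians of -0.37 for HSP70, -0.30 for HSP40, -0.25 for HSP90, -0.093 for the small heat shock proteins, -0.031 for the mitochondrial genes and -0.31 for the CCT ring. It turned HSPA1A (-0.52), HSPA1B (-0.58), HSPA4 (-0.14), HSPA4L (-0.44), DNAJB1 (-0.35), DNAJB4 (-0.25), DNAJB6 (-0.027), HSPB1 (-0.093), HSPD1 (-0.061) and HSPA9 (0.065).

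Leaving out 1 array at a time gave 2951 to 4343 signal probes (1262 to 2009 lower), 1 to 2 members higher and 4 to 9 lower, and medians of -0.13 to 0.039 for HSP70, -0.010 to 0.18 for HSP40, 0.13 to 0.27 for the small heat shock proteins and -0.17 to -0.068 for the mitochondrial genes. The fewest members fell without DMSO replicate 2, 4 genes, and without sorafenib replicate 2, also 4. On the value-table arrays it gave 1560 to 2494 probes (811 to 1192 higher, 749 to 1302 lower), 0 to 1 members higher and an HSP90 median of -0.30 to -0.21. Some genes that did not pass changed sign in these fits: on the signal arrays HSPA1B (-0.072 to 0.23), HSPA4 (-0.31 to 0.13), DNAJB4 (-0.055 to 0.30) and HSPD1 (-0.031 to 0.037), and on the value-table arrays DNAJB6 (-0.052 to 0.0078), HSPB8 (-0.070 to 0.11), TRAP1 (-0.020 to 0.026) and SERPINH1 (-0.12 to 0.036). For HSPA4 the negative values, -0.31 without sorafenib replicate 1 and -0.26 without sorafenib replicate 3, belong to its other probe. That probe was the brightest in those fits, so they are not a turn of the same probe. The HSP70 median of -0.13 includes it. The cause of the other shifts was not tested. The slide as a block was not run, since the files used here name no slides. Signals near detection, as of DNAJB4, limit what could be seen.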
